A study of Homo sapiens with 4 samples.

Results

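Glycolysis splits glucose into pyruvate in the cytosol, and lactate dehydrogenase and the lactate exporters dispose of that pyruvate when it does not enter mitochondria. When oxygen is scarce, prolyl hydroxylases stop marking the alpha subunits of hypoxia-inducible factor (HIF) for destruction, and HIF then binds short DNA elements and switches on most glycolytic enzymes together with genes for blood vessel growth, mitophagy and collagen folding. Gastric carcinoma cells in culture, like many tumour cells, run glycolysis with oxygen present and express part of this programme.

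The genes described here are 39 named enzymes, transporters, regulators and targets of glycolysis and the hypoxia response, chosen by symbol. Of these, 36 had at least 1 row of the array table that the annotation assigns to exactly 1 symbol, out of 18417 genes represented in that way. PGAM1, SLC16A3 and CA9 had no such row in the annotation used and are not analysed here. Where a gene had several rows, the one with the highest mean value stood for it.

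Expression was measured in AGS, an established line of human gastric carcinoma cells, on Affymetrix Human Gene 1.0 ST arrays. The treated group of 2 arrays came from cells given 0.01% ornithogalum, a homeopathic formulation, for 36 h, and the control group of 2 arrays from cells given the ethanol vehicle for the same time. All cultures were grown in DMEM-F12 with serum, and the labels name no hypoxic culture, so the comparison asks how the transcripts of this programme differ between treated and vehicle cells and not how they respond to oxygen. The labels call the replicates biological but do not say that they were separate experiments, so each p-value reflects the spread among these 4 arrays only, and so few arrays give limited precision. In bulk RNA, fewer cells carrying a transcript and less of it in each cell cannot be told apart.

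Values are log2 expression values per transcript cluster, a set of probes over 1 transcript locus, so a difference of 1 is a doubling. A gene "rose" or "fell" with ornithogalum where it passed a Benjamini-Hochberg adjusted p under 0.05 from limma, adjusted over all 21214 named clusters. The treated arrays had medians of 4.48 and 4.62 over those clusters, below the 4.71 and 4.70 of the controls, and differed more from each other (median SD over clusters 0.14, against 0.08 for vehicle). Of 7 epithelial markers 2 fell, KRT19 (2.63-fold) and CLDN7 (1.69-fold), and 0 rose, with EPCAM between 9.59 and 10.07, KRT8 between 10.37 and 10.59 and KRT7 between 3.72 and 4.36 on the 4 arrays. Of 7 measured gastric markers MUC1 (5.69-fold) and TFF1 (1.51-fold) fell and SOX2 rose (1.73-fold). The pan-leukocyte marker PTPRC was between 1.44 and 1.74. Summed log2 values of 7 fibroblast markers were 28.33 and 27.11 with ornithogalum and 26.12 and 25.79 with vehicle, and those of 6 leukocyte markers were 22.99 and 22.99 against 21.47 and 21.50. In these lists 1 marker each passed, PDGFRA (2.08-fold higher) and CD68 (2.26-fold higher), and 0 of 5 endothelial and erythroid markers did. Most of the markers did not pass. What part those that moved with the treatment had in the results was not tested.

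Of the 36 genes, 16 fell and 1 rose, and 19 did not pass. The background is that limma called 12.6% of all clusters lower and 6.57% higher. The share of these genes that fell, 44.4%, was above it and the share that rose, 2.78%, below it. The genes were chosen with earlier results of these data known, so these shares describe the list and do not test it. Brighter clusters were called more often, and 31 of the 36 genes lay above the median cluster. Among clusters above that median 19.9% fell and 11.0% rose, while 15 of these 31 genes fell (48.4%). The median log2 difference was -0.35 over the 36 genes and 0.04 over all clusters. The member median stood at -0.41 on the first and -0.40 on the second ornithogalum array relative to the vehicle mean, so both treated arrays showed it to a similar degree. The groups of arrays did not overlap in 30 genes, 23 of them lower (background 30.2%) and 7 higher (background 32.0%). When each array was centred on its own median, the median difference over all clusters moved from 0.04 to 0.20, the calls over all clusters went from 1393 higher and 2683 lower to 2238 higher and 1898 lower, and of the 36 genes 12 fell and 3 rose, against backgrounds of 8.95% and 10.5%. The member median lay 0.39 below the median of all clusters, a gap that such centring cannot alter. The calls rested on the vehicle pair and did not hold with either vehicle array left out, in the 36 genes or in all clusters. The median log2 difference of the 36 genes was then -0.39 without vehicle replicate 1 and -0.33 without vehicle replicate 2. Over all clusters it was 0.03 in each case. When all 33297 clusters of the table were tested together, named or not, 11 of the 36 fell, with HK2, PFKP, ALDOA, TPI1 and P4HA1 no longer among them, and EPAS1 did not pass, where 5.04% of all clusters fell and 2.90% rose.

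**Figure D1:**
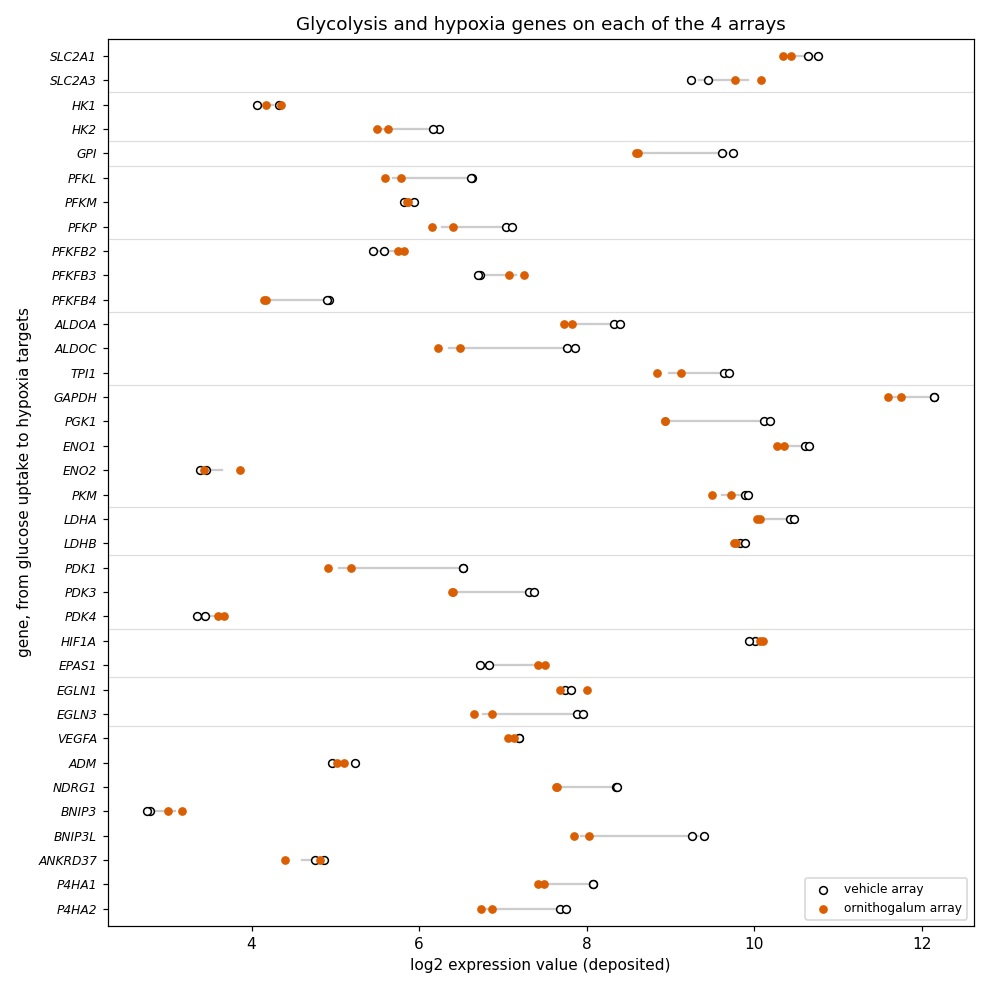
Deposited log2 expression value (horizontal axis) of each of the 36 genes on the 2 ornithogalum arrays (filled points) and the 2 vehicle arrays (open points), with a grey line joining the group means and thin lines separating pathway steps. Filled points lie left of both open points in 23 genes and right of them in 7, and levels of different genes come from different probes and are not comparable.

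Glucose enters through facilitative transporters, and the members of this step did not move together. SLC2A1, which encodes the widely expressed transporter GLUT1, was at 10.44 and 10.35 with ornithogalum and 10.64 and 10.76 with vehicle. SLC2A3, which encodes the high-affinity transporter GLUT3, was at 10.08 and 9.77 with ornithogalum and 9.24 and 9.45 with vehicle. The ornithogalum arrays thus lay below both vehicle arrays for SLC2A1 and above both for SLC2A3, and neither gene passed. The log2 difference was -0.30 (95% interval -0.61 to 0.0019, adjusted p = 0.15) for SLC2A1 and 0.58 (0.17 to 0.99, adjusted p = 0.0654) for SLC2A3. SLC2A1 passed as lower with an intensity trend, with or without a robust prior. With all 4 arrays kept, SLC2A3 passed after quantile normalization and in 4 other settings. Among these was the looser threshold of 0.1, where its adjusted p was the same 0.0654. Its cluster may share sequence with the near-identical paralogue SLC2A14, whose own cluster had a log2 difference of 0.12 (adjusted p = 0.516).

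Hexokinase and the isomerase that follows it catalyse the first steps of the pathway. HK2, the hexokinase that is induced by HIF and common in tumours, was at 5.62 and 5.50 with ornithogalum and 6.23 and 6.16 with vehicle, and fell 1.56-fold (log2 difference -0.64, SE 0.12, adjusted p = 0.0229), and did not pass after arrays were centred on their medians. HK1, the housekeeping hexokinase, overlapped between the groups, with a log2 difference of 0.07 (95% interval -0.31 to 0.45). GPI, the glucose-6-phosphate isomerase, was at 8.60 and 8.61 with ornithogalum and 9.61 and 9.75 with vehicle. Its treated arrays were nearly equal and far below both controls, and GPI fell 2.11-fold (log2 difference -1.08, SE 0.12, adjusted p = 0.00595).

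Phosphofructokinase makes the first irreversible step that is specific to glycolysis, and its 3 subunit genes split. PFKL, the liver-type subunit, was at 5.60 and 5.79 with ornithogalum against 6.63 and 6.62 with vehicle and fell 1.91-fold (log2 difference -0.93, SE 0.12, adjusted p = 0.00947). PFKP, the platelet-type subunit, was at 6.15 and 6.40 against 7.04 and 7.11 and fell 1.74-fold (log2 difference -0.80, SE 0.14, adjusted p = 0.0185). PFKM, the muscle-type subunit, was at 5.87 and 5.86 against 5.82 and 5.93. For PFKM both treated arrays sat between the vehicle arrays, with a log2 difference of -0.02 (95% interval -0.31 to 0.28).

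The bifunctional PFKFB enzymes set the level of fructose-2,6-bisphosphate, which stimulates phosphofructokinase. PFKFB4 was at 4.14 and 4.18 with ornithogalum and 4.92 and 4.90 with vehicle and fell 1.68-fold (log2 difference -0.75, SE 0.11, adjusted p = 0.0122). PFKFB3, the isoenzyme with the strongest kinase activity, pointed the other way, at 7.07 and 7.25 against 6.73 and 6.71 (log2 difference 0.44, 95% interval 0.13 to 0.76, adjusted p = 0.0682). PFKFB3 did not pass on the deposited values, but passed after cyclic loess, after centring arrays on their medians and in 5 other settings. Among these was the looser threshold of 0.1, where its adjusted p was the same 0.0682. PFKFB2 was at 5.82 and 5.74 against 5.45 and 5.59, with both treated arrays above the controls and an adjusted p = 0.198.

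All 3 genes of the next steps, which split fructose-1,6-bisphosphate and interconvert the triose phosphates, fell (background 12.6%). ALDOC, an aldolase otherwise typical of brain, was at 6.22 and 6.49 with ornithogalum and 7.77 and 7.86 with vehicle. ALDOC fell 2.75-fold (log2 difference -1.46, SE 0.14), one of the 2 largest falls among these genes. ALDOA, the main aldolase of muscle and of many tumours, was at 7.83 and 7.73 against 8.32 and 8.39 and fell 1.49-fold (adjusted p = 0.0279). TPI1, triose-phosphate isomerase, was at 9.13 and 8.84 against 9.65 and 9.70 and fell 1.61-fold (adjusted p = 0.0309). Another TPI1 cluster fell 1.74-fold (adjusted p = 0.0102). ALDOA and TPI1 no longer passed after arrays were centred on their medians.

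In the payoff phase of glycolysis, 1 of 5 measured genes fell (20%, background 12.6%). Of the 5, 4 lay above the median cluster, where 19.9% of all clusters fell, so the share is near that background. PGK1, phosphoglycerate kinase, which makes the first ATP of the pathway and is a classical HIF target, was at 8.94 on each ornithogalum array and at 10.12 and 10.19 with vehicle. The fall was 2.32-fold (log2 difference -1.21, SE 0.11, adjusted p = 0.00449). GAPDH, which oxidises glyceraldehyde-3-phosphate and is often used as a reference transcript, was at 11.75 and 11.60 against 12.15 on each vehicle array. For GAPDH both treated arrays were below both controls, by 0.47 on average (95% interval of the difference -0.78 to -0.17), and the adjusted p of 0.0516 missed the threshold. GAPDH passed in 7 of the 17 other settings, among them cyclic loess and the looser threshold of 0.1, where its adjusted p was the same 0.0516. ENO1, the ubiquitous enolase, and PKM, pyruvate kinase, had log2 differences of -0.31 and -0.29 with adjusted p of 0.129 and 0.188, and in each gene the treated arrays were the lower ones. ENO1 passed when only clusters above the median level were tested and with an intensity trend, with or without a robust prior. PKM passed in no other setting. ENO2, the neuronal enolase, overlapped between groups, because its second ornithogalum array was at 3.43 and the vehicle arrays at 3.38 and 3.45. These values are like those of markers that the cells should lack, such as VWF (3.17 to 3.55).

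Lactate dehydrogenase closes the pathway. LDHA, the subunit that favours lactate formation, was at 10.04 and 10.07 with ornithogalum and 10.43 and 10.47 with vehicle (log2 difference -0.40, 95% interval -0.68 to -0.12, adjusted p = 0.0667). LDHA passed as lower when only clusters above the median level were tested and with an intensity trend, with or without a robust prior. It also passed the looser threshold of 0.1, where its adjusted p was the same 0.0667. LDHB, the subunit that favours lactate use, had a log2 difference of -0.09 (95% interval -0.37 to 0.20) and turned to 0.07 after centring arrays on their medians. Over all steps from glucose uptake to lactate, 9 of 21 measured genes fell (42.9%, background 12.6%) and 0 rose (background 6.57%). The median log2 difference was -0.40, and 12 genes did not pass. After cyclic loess 10 of the 21 fell and 1 rose, where 2750 of all 21214 clusters fell and 1610 rose. After centring arrays on their medians 6 fell and 1 rose, against backgrounds of 8.95% lower and 10.5% higher. On the deposited values, at an unadjusted p under 0.05 from limma, a further 3 genes, GAPDH, ENO1 and LDHA, were lower and SLC2A3 and PFKFB3 higher. The share of all clusters at that looser threshold was not counted, so these genes are only listed. Several of these genes have processed pseudogenes that could share probe sequence: the RefSeq gene table lists 65 named after GAPDH, 6 after LDHA, 5 after PKM, 4 each after TPI1 and ENO1, and 2 each after PGK1 and ALDOA. Their part in the values was not tested.

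**Figure D2:**
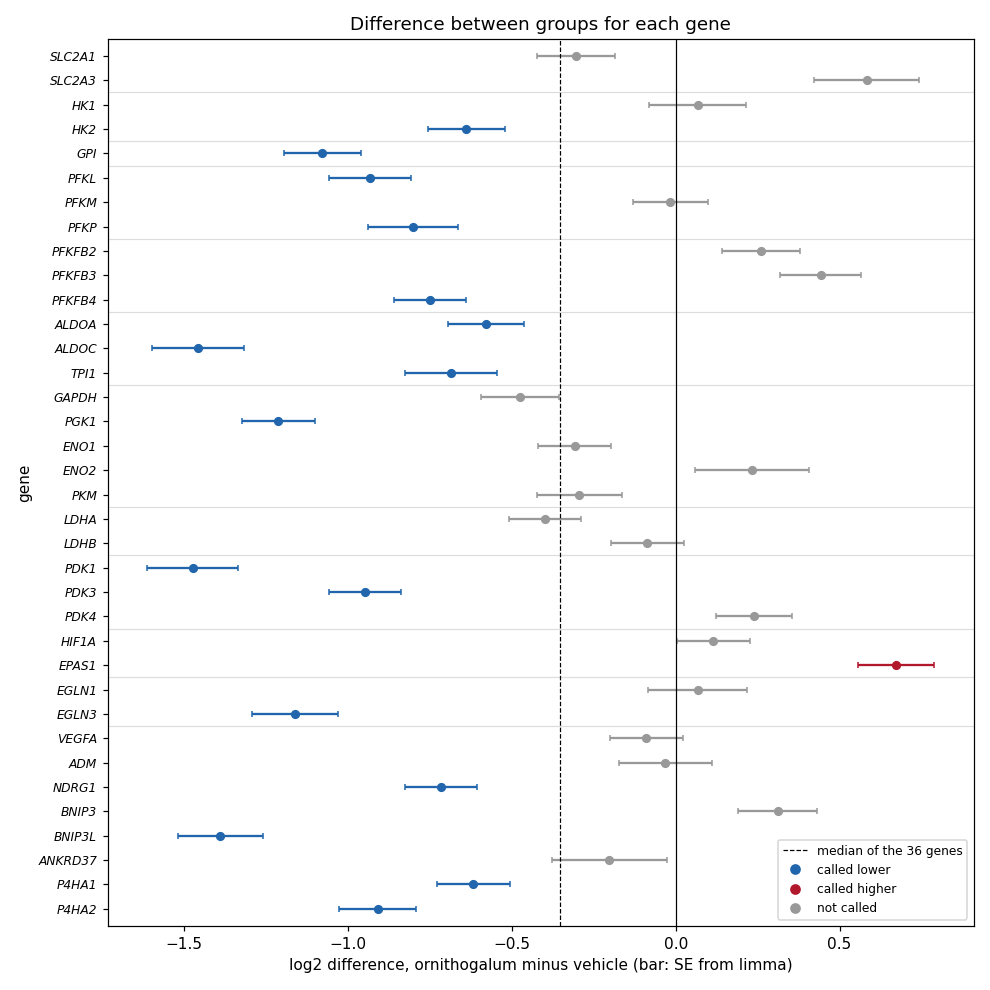
Log2 difference between ornithogalum and vehicle (horizontal axis, bars are limma's SE, n = 2 arrays per group) for each of the 36 genes in pathway order, coloured by the call at an adjusted p under 0.05. The 16 genes that fell lie between -1.47 and -0.58, EPAS1 at 0.67 is the 1 that rose, and the dashed line marks the median of -0.35.

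Pyruvate dehydrogenase kinases switch off the enzyme that sends pyruvate into the citric acid cycle, and HIF induces PDK1. PDK1 was at 4.91 and 5.19 with ornithogalum and at 6.52 on each vehicle array, and its fall of 2.78-fold was the largest among the 36 genes (log2 difference -1.47, SE 0.14). PDK3, another HIF-inducible kinase, was at 6.39 and 6.40 against 7.31 and 7.37 and fell 1.93-fold (log2 difference -0.95, SE 0.11, adjusted p = 0.00698). PDK4, the kinase induced by fasting and fatty acids, was at 3.59 and 3.67 against 3.44 and 3.35. The treated arrays were thus below the controls for PDK1 and PDK3 and above them for PDK4, where the log2 difference of 0.24 did not pass (95% interval -0.06 to 0.54).

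Of the HIF alpha subunits, EPAS1 rose and HIF1A did not pass. EPAS1, which encodes HIF-2 alpha, was at 7.50 and 7.42 with ornithogalum and 6.73 and 6.84 with vehicle and rose 1.59-fold (log2 difference 0.67, SE 0.12, adjusted p = 0.0192). HIF1A, which encodes HIF-1 alpha, was at 10.07 and 10.11 against 10.01 and 9.94 (log2 difference 0.11, 95% interval -0.17 to 0.40). Both genes are measured here as transcripts, and HIF alpha is regulated mainly through protein stability, which arrays do not measure.

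The HIF prolyl hydroxylases, of which EGLN3 is itself strongly induced by HIF, also differed. EGLN3 was at 6.65 and 6.87 with ornithogalum and 7.89 and 7.96 with vehicle and fell 2.24-fold (log2 difference -1.16, SE 0.13, adjusted p = 0.00646). EGLN1, the main oxygen sensor of the family, was at 7.68 and 8.01 against 7.74 and 7.82, so the treated arrays lay on either side of the controls (log2 difference 0.07, 95% interval -0.32 to 0.45).

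Among HIF targets outside glycolysis, 4 of 8 measured genes fell (background 12.6%) and 0 rose (background 6.57%), with a median log2 difference of -0.41. BNIP3L, a mitophagy receptor also called NIX, was at 8.02 and 7.85 with ornithogalum and 9.26 and 9.40 with vehicle. BNIP3L fell 2.62-fold (log2 difference -1.39, SE 0.13, adjusted p = 0.0045). Its relative BNIP3 had a mean of 3.08 ± 0.12 against 2.77 ± 0.03 (SD, n = 2 per group), with treated arrays above the controls and an adjusted p = 0.148. BNIP3 passed as higher after arrays were centred on their medians, and RefSeq lists 46 pseudogenes named after it.

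P4HA1 and P4HA2, which encode catalytic subunits of collagen prolyl hydroxylase, an enzyme that stabilises the collagen triple helix, fell. P4HA2 was at 6.74 and 6.87 with ornithogalum and 7.68 and 7.75 with vehicle and fell 1.88-fold (log2 difference -0.91, SE 0.12, adjusted p = 0.00894). P4HA1 was at 7.42 and 7.49 against 8.08 on each vehicle array and fell 1.53-fold (adjusted p = 0.0213). P4HA1 no longer passed after arrays were centred on their medians, and P4HA2 still did. NDRG1, a stress and differentiation gene widely used as a hypoxia marker, was at 7.64 and 7.63 against 8.35 and 8.36. NDRG1 fell 1.64-fold (log2 difference -0.72, SE 0.11, adjusted p = 0.0136), and its replicates were close in each group (SD 0.0099 with ornithogalum and 0.0065 with vehicle).

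The other targets, VEGFA, ADM and ANKRD37, did not pass. VEGFA, the main secreted angiogenic growth factor, was at 7.06 and 7.13 with ornithogalum and at 7.19 on each vehicle array (log2 difference -0.09, 95% interval -0.37 to 0.20). ADM, the vasodilator peptide adrenomedullin, was at 5.03 and 5.11 against 5.24 and 4.96 (log2 difference -0.03, 95% interval -0.40 to 0.33). ANKRD37, a small ankyrin protein strongly induced by HIF, was at 4.40 and 4.82 against 4.76 and 4.86 (log2 difference -0.20, 95% interval -0.65 to 0.24). The treated arrays overlapped the controls for ADM and ANKRD37 and lay just below them for VEGFA. The direction of VEGFA and ADM turned positive after centring arrays on their medians, at 0.07 and 0.13.

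The related genes of a step can be compared within each array, where the log2 ratio of 1 gene to its relative is free of any constant shift of that array. The 18 pairs and the gene placed first in each were chosen after the values were seen. With ornithogalum the log2 ratio of PFKL to PFKM changed by -0.92 (SE 0.12, n = 2 per group) and that of PFKP to PFKM by -0.79 (SE 0.13), whereas that of PFKL to PFKP changed by -0.13 (SE 0.05). The falling subunit genes thus moved apart from PFKM far more than from each other. A change in a ratio is the log2 difference of the first gene minus that of the second. It restates the values given above for each gene and is not separate support for them. The ratio of PFKFB4 to PFKFB3 changed by -1.19 (SE 0.07) and that of SLC2A1 to SLC2A3 by -0.89 (SE 0.11). PDK1 changed by -0.53 against PDK3 (SE 0.13). In the hypoxia genes the ratio of EGLN3 to EGLN1 changed by -1.23 (SE 0.05) and that of HIF1A to EPAS1 by -0.56 (SE 0.10). The ratio of ALDOC to ALDOA changed by -0.88 (SE 0.18). BNIP3 (2.75 to 3.17 over the arrays), PDK4 (3.35 to 3.67) and ENO2 (3.38 to 3.86) had values like those of markers that these cells should lack. Such markers were HBB (2.99 to 3.20), VWF (3.17 to 3.55) and CDH5 (3.53 to 3.83). Ratios to BNIP3, PDK4 and ENO2 are therefore given no size. In each ratio with a size, the values on the ornithogalum arrays lay below those on the vehicle arrays. An exact two-sided permutation test of 2 against 2 arrays cannot go below p = 0.333, so none of these ratios can reach 0.05 by that test. A ratio shows that a pair changed unequally, not that either gene stayed level.

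**Figure D3:**
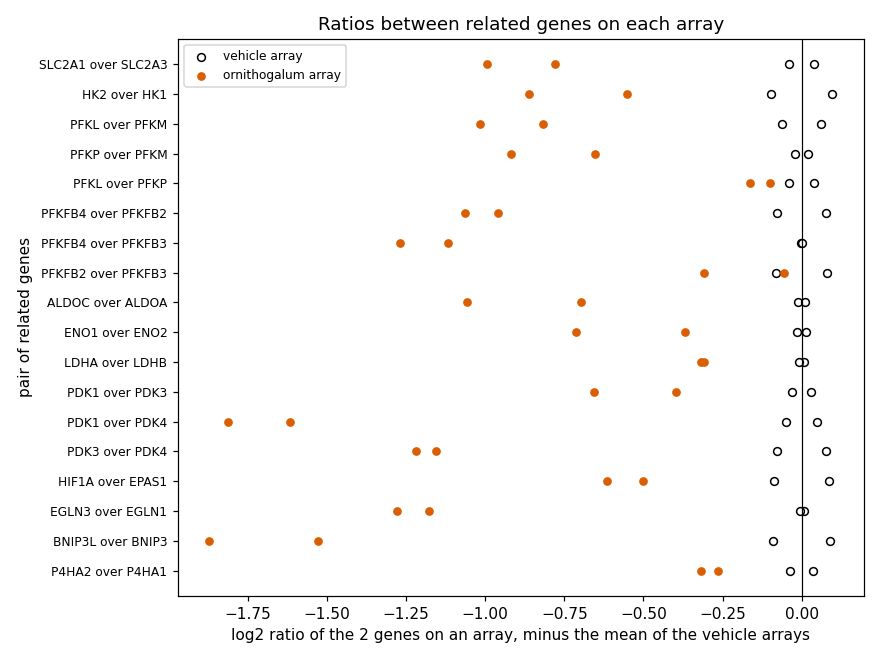
Log2 ratio of related genes on each array, minus the mean ratio of the vehicle arrays (horizontal axis), for 18 pairs, with filled points for the 2 ornithogalum and open points for the 2 vehicle arrays. EGLN3 over EGLN1 is displaced by -1.23 and PFKFB4 over PFKFB3 by -1.19, and the groups of PFKFB2 over PFKFB3 overlap. Pairs with BNIP3, PDK4 or ENO2 rest on probes near the level of markers these cells should lack and have no exact size.

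HIF binds DNA at a core of ACGTG or GCGTG, usually near the start of its targets. The 250 bases before each RefSeq start of PGK1, PDK1, ALDOC and GPI are shown because these are the genes of smallest p among those that changed and have an entry in the table of promoters, and PGK1 holds a hypoxia element that is a textbook example. Sequences are from RefSeq on GRCh38.p14, 5′ to 3′ along the gene, and capitals mark ACGTG or GCGTG on either strand (CACGT or CACGC where the core is on the opposite strand). The regions are chrX:78103998-78104247 on the plus strand for PGK1, chr2:172555123-172555372 and chr2:172555840-172556089 on the plus strand for PDK1, chr17:28576896-28577145 on the minus strand for ALDOC and chr19:34364742-34364991 on the plus strand for GPI.
PGK1: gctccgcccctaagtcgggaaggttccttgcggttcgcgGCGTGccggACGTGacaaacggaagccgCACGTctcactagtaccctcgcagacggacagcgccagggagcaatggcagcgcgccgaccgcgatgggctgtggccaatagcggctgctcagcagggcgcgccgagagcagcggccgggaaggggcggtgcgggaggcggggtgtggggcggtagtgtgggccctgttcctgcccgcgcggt
PDK1 start 1: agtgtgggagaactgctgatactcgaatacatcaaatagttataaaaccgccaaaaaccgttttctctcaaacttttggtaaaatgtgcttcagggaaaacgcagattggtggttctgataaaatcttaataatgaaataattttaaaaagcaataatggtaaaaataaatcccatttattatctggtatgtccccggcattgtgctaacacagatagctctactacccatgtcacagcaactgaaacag
PDK1 start 2: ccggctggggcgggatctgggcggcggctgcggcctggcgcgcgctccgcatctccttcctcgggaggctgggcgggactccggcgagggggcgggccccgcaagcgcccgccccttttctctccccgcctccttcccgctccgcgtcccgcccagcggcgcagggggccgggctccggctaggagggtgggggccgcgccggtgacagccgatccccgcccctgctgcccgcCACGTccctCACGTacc
ALDOC: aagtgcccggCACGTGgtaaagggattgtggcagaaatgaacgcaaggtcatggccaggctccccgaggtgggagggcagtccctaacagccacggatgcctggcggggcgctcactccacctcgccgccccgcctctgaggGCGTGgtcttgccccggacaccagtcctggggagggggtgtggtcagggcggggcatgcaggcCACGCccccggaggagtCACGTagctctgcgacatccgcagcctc
GPI: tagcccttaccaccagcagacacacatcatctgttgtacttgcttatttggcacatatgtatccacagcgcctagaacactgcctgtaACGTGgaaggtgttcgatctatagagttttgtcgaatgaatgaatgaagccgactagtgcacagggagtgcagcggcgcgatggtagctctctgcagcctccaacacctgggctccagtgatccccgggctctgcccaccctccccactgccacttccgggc

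In PGK1 the cores begin 211, 202 and 183 bases before the start. The ALDOC sequence has ACGTG on both strands within 1 palindrome 240 bases before the start, another 28 bases before it, and GCGTG at 108 and 45. GPI has a single ACGTG, at 162, and PDK1 has a core 17 and another 8 bases before its second start and 0 in the window of its first. Over the 31 of 36 genes with an entry, 18 had ACGTG at 1 start or more. SLC2A3, PFKFB2, VEGFA, NDRG1 and BNIP3L have no entry. By gene, ACGTG was present in 10 of 14 genes that fell and 8 of 17 others, and either core in 12 of 14 and 13 of 17. Counted by start, ACGTG was present at 13 of 22 starts (59.1%) of the genes that fell and 8 of 32 starts (25%) of the others, against 18.5% of all 35116 windows in the table. With either core it was 72.7% and 46.9%, against 43.2% of all windows. HK1 and PFKM have 7 starts each among those of the others, of which 0 and 1 hold ACGTG. Starts of 1 gene can overlap in sequence, the genes were chosen as members of a HIF-regulated programme, and a match is a description of these letters and not a binding site.

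Other genes around the same pathway, on lists fixed apart from the 36, were mixed. Of 19 further measured genes of glycolysis, gluconeogenesis and glycogen or bisphosphoglycerate branches, 5 fell (26.3%, background 12.6%) and 1 rose (5.26%, background 6.57%). The median log2 difference was -0.14, and -0.01 without ornithogalum replicate 1 and -0.30 without ornithogalum replicate 2. Of the 19, only 7 lay above the median cluster. When only clusters above that median were tested, 5 of these 7 fell and 1 rose, with a median log2 difference of -0.57. In that fit 3021 of 10607 clusters fell and 1811 rose. PGM1, phosphoglucomutase, which links glycolysis to glycogen, fell 3.67-fold, from 8.36 and 8.38 to 6.53 and 6.46. TIGAR, a p53-induced phosphatase that lowers fructose-2,6-bisphosphate, rose 2.52-fold, from 5.83 and 5.82 to 7.11 and 7.20. MINPP1, BPGM, PGM2 and G6PC3 fell 2.26-fold, 1.53-fold, 1.41-fold and 1.48-fold. On this list 3 genes fell after quantile normalization, where 2482 of all 21214 clusters fell. After centring arrays on their medians 2 fell (background 8.95%) and the median became 0.02.

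Of 18 measured genes of sugar, lactate and pyruvate transport and of the pyruvate dehydrogenase complex, 4 rose and 4 fell. That was 22.2% each way, against 6.57% higher and 12.6% lower over all clusters. Of the 18, 13 lay above the median cluster, and among all clusters above it 11.0% rose and 19.9% fell. PDK2, the kinase most widespread in tissues, was at 4.59 and 4.81 with ornithogalum and 5.83 and 6.02 with vehicle and fell 2.34-fold. PDP1, the phosphatase that reverses the action of these kinases, was at 8.10 and 8.19 against 7.28 and 7.18 and rose 1.89-fold. The treated arrays were thus lower for the kinase and higher for the phosphatase. The subunits of the mitochondrial pyruvate carrier went opposite ways, with MPC2 1.99-fold higher and MPC1 1.65-fold lower. SLC2A12, a glucose transporter, fell 2.58-fold, SLC2A8 rose 1.43-fold, PDHX rose 1.72-fold and DLD fell 1.84-fold. With ornithogalum SLC2A12 was at 2.87 and 2.78, values like those of markers that these cells should lack, so its fold is not exact.

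Of 12 other measured components of HIF control, 3 rose (25%, background 6.57%) and 0 fell (background 12.6%), with a median log2 difference of 0.27. Above the median cluster, where 9 of the 12 lay, 11.0% of all clusters rose and 19.9% fell. EP300 and CREBBP, coactivators that HIF recruits, rose 2.33-fold and 1.40-fold. ELOC, a subunit of the ligase complex that destroys HIF alpha, rose 1.96-fold in its brighter cluster, while its other cluster had a log2 difference of 0.33 and did not pass (adjusted p = 0.274). VHL, the substrate receptor of that ligase, had a log2 difference of -0.20 (adjusted p = 0.316), and ARNT, the partner subunit of HIF alpha, one of 0.04 (adjusted p = 0.853).

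Further HIF targets, 35 measured, rose in 6 and fell in 5. ERO1A, an oxidase of the endoplasmic reticulum, fell 2.13-fold, FAM162A 2.11-fold, PLOD1, a collagen lysyl hydroxylase, 1.92-fold, HILPDA, a lipid droplet protein, 3.22-fold and ZNF395 1.43-fold. The size for HILPDA is imprecise, because its ornithogalum arrays were at 3.53 and 4.50, against 5.75 and 5.66 with vehicle. BHLHE40, a repressor linked to the clock, rose 2.88-fold, from 6.89 and 6.94 to 8.49 and 8.38. RIOK3, TFRC, which encodes the transferrin receptor, ERRFI1, a brake on the EGF receptor, JMJD6 and DDIT4, an inhibitor of mTORC1, rose 2.42-fold, 2.32-fold, 2.12-fold, 1.90-fold and 1.63-fold. The share that fell was 14.3% (background 12.6%) and the share that rose 17.1% (background 6.57%). Above the median cluster, where 20 of the 35 lay, 19.9% of all clusters fell and 11.0% rose. The list's median of 0.08 turned to -0.04 after quantile normalization.

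**Figure D4:**
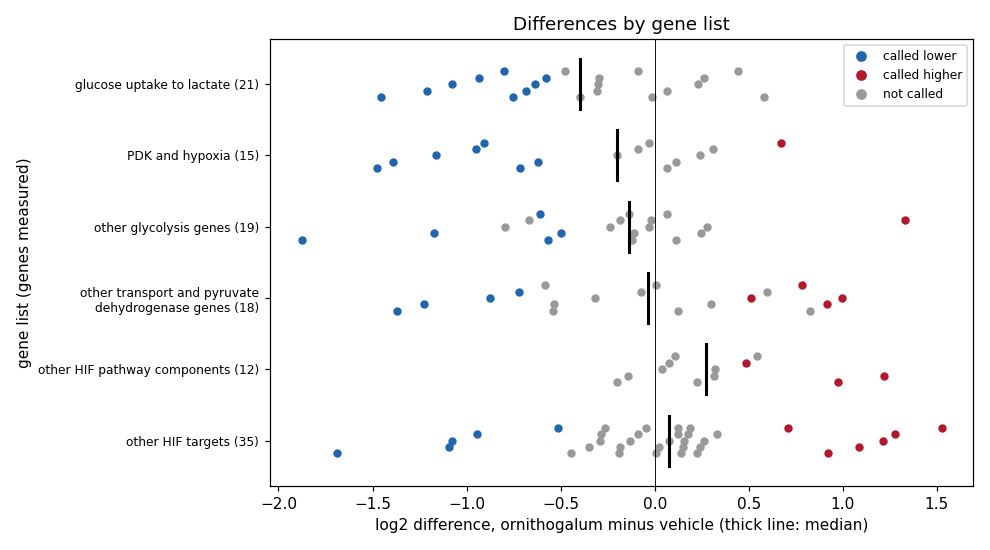
Log2 difference between ornithogalum and vehicle (horizontal axis) for every measured gene of the 36, split at lactate, and of 4 other lists, with 1 point per gene coloured by its call and a thick line at each list's median. The medians run from -0.40 for glucose uptake to lactate to 0.27 for other HIF pathway components, and the further HIF targets hold 5 genes that fell and 6 that rose.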

How the data were processed

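The authors deposited a table of log2 values with 1 column per array and 1 row per transcript cluster, summarised with RMA in Expression Console 1.1 as the submitters' processing notes name them, with no settings stated in the sources used here. Of 33297 clusters, 21214 carry a gene symbol in the platform annotation of GEO, 19460 of them exactly 1, and symbols were updated through the RefSeq gene table, which matched 19429 of these. The groups were compared by limma (version 3.58.1, R version 4.3.3), using lmFit and eBayes with no intensity trend and no filter on dim clusters, two-sided, with Benjamini-Hochberg adjustment over the 21214 named clusters. Means are over 2 arrays, differences have limma's SE, intervals are 95% intervals on limma's total degrees of freedom, and folds are 2 raised to the log2 difference. The fit was tested on simulated data.

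The 36 genes and all other lists were chosen with earlier results of these data known. Every gene of the 36 could be named, and from other lists the called genes and the 3 of smallest p. Alternatives were a replicate block, each array left out in turn, other scalings, filters, priors, array weights, cluster sets, gene averaging and thresholds.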

Additional observations from a re-analysis of the deposited data

How the results depend on the processing

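The number of genes that fell was within 1.5 times of 16 (11 to 20), except without either vehicle array, where it was 0, and at an adjusted p under 0.01, where it was 9. Leaving out 1 array gave 0 to 17 lower and 0 to 3 higher. The number that rose went from 1 to 2 with quantile normalization and cyclic loess. It was 3 with median-centred arrays, clusters above the median level only, an intensity trend with or without a robust prior, and an adjusted p under 0.1, and 0 over all clusters and at an adjusted p under 0.01. Totals over all 21214 named clusters also moved with the setting. They went from 2683 lower and 1393 higher without an intensity trend to 3344 and 1822 with it. At an adjusted p under 0.01 they were 1001 lower and 442 higher. In both settings the counts among the 36 genes moved in the same direction as these totals. The median of -0.35 over the 36 genes became -0.19 with median-centred arrays and -0.47 over the 31 genes above the median level. Some genes that did not pass changed sign. With median-centred arrays PFKM was at 0.143, LDHB at 0.0732, VEGFA at 0.0705 and ADM at 0.128. With quantile normalization PFKM was at 0.102 and ADM at 0.111, and with cyclic loess they were at 0.0564 and 0.0624. Leaving out 1 array at a time, HK1 ran from -0.0640 to 0.199, PFKM from -0.0725 to 0.0397, EGLN1 from -0.0950 to 0.229, ADM from -0.172 to 0.109 and ANKRD37 from -0.413 to 0.00814. The causes were not tested. The labels do not say what a replicate number marks, and deviations of same-numbered arrays had r = -0.06 across clusters (-0.24 over the 36 genes), so the numbers were not used to pair arrays. A fit with a replicate block called 15 genes lower and 1 higher, and ALDOA was the gene no longer called (adjusted p = 0.0594). With 2 arrays per group, differences of the size of those in LDHA and GAPDH lay near the limit of what passed.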
